A study of Mus musculus with 50 samples.

Results

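The AMPA and kainate receptor subunits were followed across every library of a RiboTag (RT) study of the mouse nucleus accumbens (NAc). They comprised 9 genes, the AMPA subunits Gria1, Gria2, Gria3 and Gria4 and the kainate subunits Grik1, Grik2, Grik3, Grik4 and Grik5, chosen by gene symbol. All 9 of the 24552 genes in the count tables were found by symbol, and all 9 passed the filter on low counts in every comparison.

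AMPA and kainate receptors are tetrameric cation channels opened by glutamate. AMPA receptors carry most of the fast excitatory current at the synapses that cortical, hippocampal, thalamic and amygdalar axons make on medium spiny neurons (MSNs), and their subunit makeup sets calcium permeability, speed and trafficking. Kainate receptors are built from low-affinity subunits that form channels on their own (Grik1, Grik2 and Grik3) and high-affinity subunits that need a partner (Grik4 and Grik5), and they act on both the pre- and the postsynaptic side.

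In RT mice, Cre recombinase switches on an HA-tagged copy of the ribosomal protein Rpl22, so that an antibody to HA pulls down polysomes and their mRNA from the Cre-expressing cells. C57BL/6 mice aged 8 to 12 weeks carried RT with either D1-Cre (BAC line FK150) or D2-Cre (BAC line ER44), which drive Cre from dopamine D1 or D2 receptor regulatory sequence in the cells of 1 MSN class and in any other cell that uses it, cholinergic interneurons among them for D2. The mice stayed in control housing (Con) or went through chronic social defeat stress for up to 10 days, after which a social interaction test sorted the defeated mice into resilient (Res, also termed unsusceptible) and susceptible (Sus) animals. Each library came from the pooled NAc punches of 2 mice.

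The pulled-down RNA (IP) gave 13 D1-IP libraries (4 Con, 4 Res and 5 Sus) and 15 D2-IP libraries (5 in each group), and the RNA of the lysate gave 18 input libraries, 3 for each line and stress group. A further 4 D1-IP libraries, labelled Sirt1-KO, came from male undefeated RT; D1-Cre mice with floxed Sirt1, whose age is not in the labels, and their comparison group was the 4 D1-IP Con libraries. Total counts on genes were 18384265 to 31009626 in the 46 IP and input libraries and 22174187 to 31785984 in the Sirt1-KO libraries. The line labels held in the IPs. Drd1 was 2.46-fold higher in D1-IP (289.6 to 405 counts per 1000000 counts on genes, CPM, against 110.0 to 172) and Drd2 was 3.53-fold lower (80.0 to 125 against 299 to 389.8 CPM), without overlap of the libraries. The summed level of 4 D2 markers was nevertheless higher in D1-IP (2061 to 3471 CPM) than in the D1 inputs (776 to 1324 CPM). Sequencing sets are not assigned to libraries in the sources used here, so within-set values were not computed.

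All 9 subunits share the re-entrant pore loop, and it holds the codon that RNA editing can recode from glutamine to arginine in Gria2, Grik1 and Grik2. The 33 bases of the coding strand around this codon are shown because every subunit carries this stretch and its sequence still differs between them. Capitals mark the codon, as encoded in the genome (GRCm38/mm10, GENCODE vM21 transcripts).
Gria1: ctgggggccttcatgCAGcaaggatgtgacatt
Gria2: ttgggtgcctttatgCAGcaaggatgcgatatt
Gria3: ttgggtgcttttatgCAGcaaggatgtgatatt
Gria4: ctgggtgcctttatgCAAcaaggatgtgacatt
Grik1: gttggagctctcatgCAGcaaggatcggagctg
Grik2: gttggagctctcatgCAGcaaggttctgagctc
Grik3: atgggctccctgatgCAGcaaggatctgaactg
Grik4: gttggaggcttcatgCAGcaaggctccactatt
Grik5: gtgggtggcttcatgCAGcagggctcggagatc

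The codon encoded glutamine in all 9 genes. The stretch lies in 1 exon in the AMPA subunits and in Grik4 and Grik5, at chr11:57243079-57243111 (exon 11) for Gria1, chr3:80706896-80706928 (exon 11) for Gria2, chrX:41610250-41610282 (exon 11) for Gria3, chr9:4464122-4464154 (exon 12) for Gria4, chr9:42547608-42547640 (exon 14) for Grik4 and chr7:25022482-25022514 (exon 15) for Grik5. In Grik1 (exons 13 and 14, chr16:87936105-87940559), Grik2 (exons 12 and 13, chr10:49240786-49244346) and Grik3 (exons 12 and 13, chr4:125691192-125693972) it is joined across an intron. Gria1, Gria3 and Grik3 are on the plus strand and the other 6 genes on the minus strand. Between subunits of a family, 71.7% to 74.6% of the aligned coding bases were identical for AMPA and 63.9% to 73.4% for kainate, and the longest identical run was 57 bases within AMPA and 46 within kainate. These runs are shorter than the 150-base reads. The counts do not show editing or splice forms such as flip and flop.

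Per kilobase of merged exon, a scale on which genes can be compared, Gria1 was the most abundant of the 9 and Grik1 the least in D1-IP, D2-IP and the inputs of both lines. In D1-IP (n = 13) the order was Gria1 (151 ± 8.79 CPM per kb, mean ± SD), Gria2 (75.5 ± 4.68), Grik5 (51.8 ± 2.17), Gria3 (36.6 ± 3.31), Grik3 (26.0 ± 2.78), Gria4 (14.1 ± 1.02), Grik2 (8.95 ± 0.737), Grik4 (5.41 ± 0.281) and Grik1 (1.91 ± 0.402). Each neighbour in that order was separated from the next without overlap of the 13 libraries.

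In D2-IP (n = 15) the order differed at 1 step. Grik3 (42.2 ± 4.98 CPM per kb) stood above Gria3 (33.9 ± 2.09), in 15 of 15 libraries, although the ranges of these neighbours overlapped, as did those of Grik5 (53.1 ± 3.54) and Grik3. With the length of the longest transcript in place of the merged exons, Gria3 moved up to the third place in D1-IP and to the fourth in D2-IP, above Grik3. In the inputs that length put Grik4 last, below Grik1, in both lines, and Gria4 above Grik3 in the D1 inputs, while Gria1 and Gria2 kept the first places in all 4 sets. In the inputs the ranges of Gria2 and Grik5, of Gria3 and Grik3, and of Grik3 and Gria4 overlapped, and in the D2 inputs also those of Grik4 and Grik1.

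**Figure D1:**
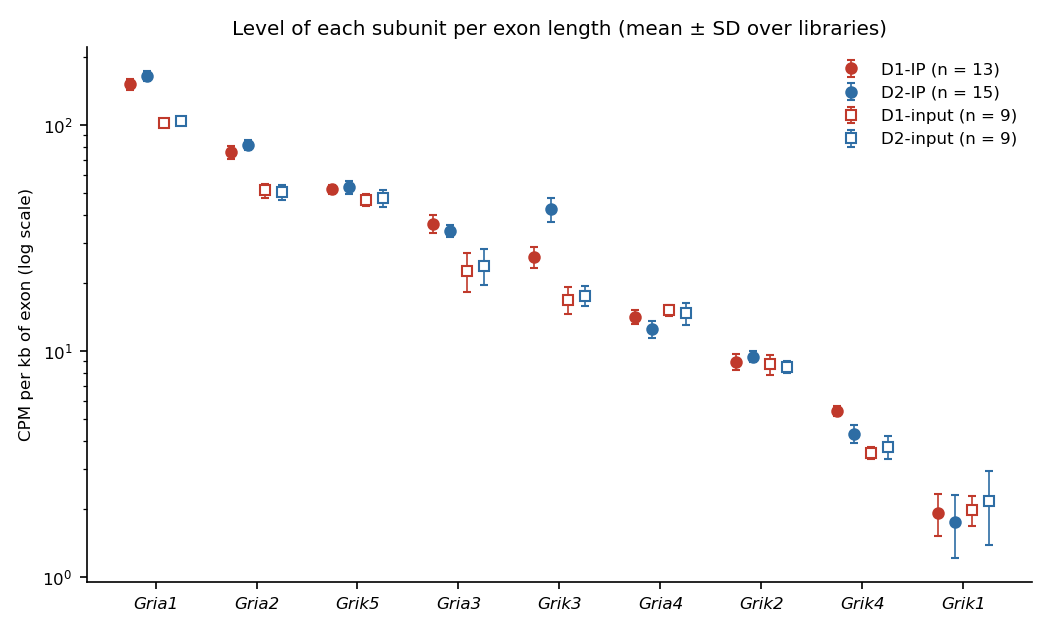
Level of each subunit in CPM per kb of exon on a log axis, as the mean (symbols) and SD (bars) over the D1-IP, D2-IP, D1 input and D2 input libraries. Gria1 is highest and Grik1 lowest in every set, and Grik3 is higher in D2-IP (42.2) than in D1-IP (26.0).

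Expressed as a share of its own family, Gria1 made up 54.5% ± 2.31 (SD) of the AMPA subunit level per kb in D1-IP and 56.3% ± 1.42 in D2-IP. Gria2, the subunit whose edited form makes the channel impermeable to calcium, made up 27.2% ± 1.49 and 27.9% ± 1.05. Gria3 took 13.2% ± 1.18 and 11.6% ± 0.582. Gria4, a subunit of fast channels prominent in several interneuron types, took 5.09% ± 0.427 and 4.27% ± 0.389 in the IPs, against 7.93% ± 0.606 of the D1 inputs and 7.62% ± 1.07 of the D2 inputs. No input library was as low in Gria4 share (lowest 6.54%) as any IP library (highest 6.08%). The shares of both families used the merged exons and depend on that length. Per kb of the longest transcript, Gria1, Gria2, Gria3 and Gria4 measured 165, 113, 69.2 and 16.3 CPM in D1-IP.

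The kainate family was made up mostly of Grik5 and Grik3. Grik5, a high-affinity subunit, held 55.1% ± 1.57 in D1-IP and 48.0% ± 2.41 in D2-IP, against 59.9% ± 1.71 and 59.7% ± 2.21 in the D1 and D2 inputs. Grik3, a low-affinity subunit, held 27.6% ± 2.02 in D1-IP (24.3% to 30.5%), 38.0% ± 2.33 in D2-IP (33.8% to 43.0%), 21.7% ± 2.01 in D1 inputs and 22.1% ± 1.55 in D2 inputs. Its share in D2-IP lay above that in every other library. The shares of a family depend on each other, so a lower share need not be a lower level. The level of Grik5 itself did not pass between D1-IP and D2-IP (log2 difference −0.05, adjusted p = 0.244 by edgeR). Against input it was higher in the IPs (0.16 in D1 and 0.17 in D2 mice). Grik2, Grik4 and Grik1 held 9.53%, 5.76% and 2.04% of the D1-IP family level and 8.51%, 3.90% and 1.60% of that in D2-IP. Kainate subunits together were 25.3% ± 0.826 of the level of both families in D1-IP, 27.5% ± 1.21 in D2-IP and 28.9% and 29.1% in the D1 and D2 inputs.

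**Figure D2:**
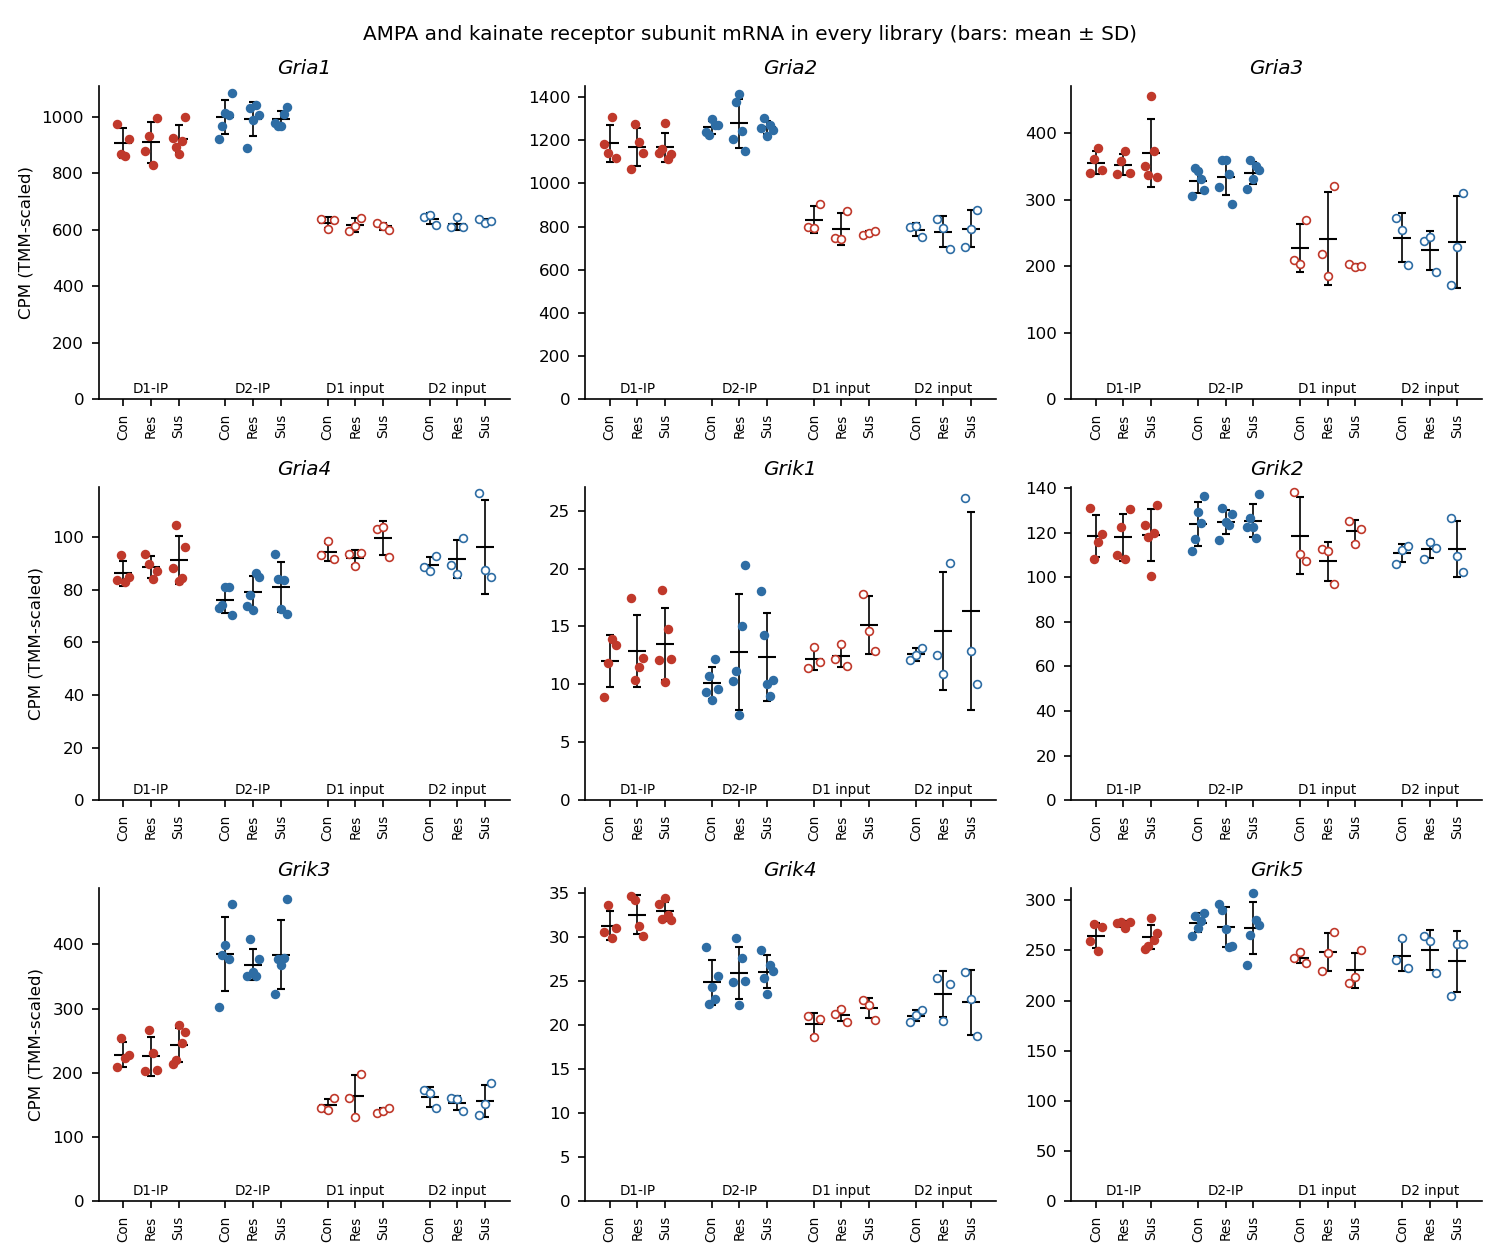
Level of each subunit in CPM in every IP and input library, by line and stress group, with a point for each library and bars for the group mean and SD. The D2-IP libraries of Grik3 (302 to 471 CPM) sit above all other libraries, and Gria1 and Gria2 are higher in the IPs than in the inputs.

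The comparison of D1-IP with D2-IP, averaged over the 3 stress groups, asked which subunits differ between the translated RNA of the MSN classes. Grik3 was lower in D1-IP, Grik4 was higher, and 3 AMPA subunits differed by smaller amounts, Gria1 and Gria2 being lower and Gria4 higher in D1-IP. In the edgeR fit, with p-values adjusted over all genes by Benjamini-Hochberg, 5 of the 9 subunits passed an adjusted p of 0.05, 2 higher and 3 lower in D1-IP. Of all 14224 genes tested, 40.8% passed, 19.6% higher and 21.3% lower, so the share among the subunits was close to that of all genes. At a fold over 1.5 as well, 1 subunit (Grik3) and 7.66% of all genes passed. The median log2 difference was −0.05 over the subunits and −0.02 over all genes.

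Grik3 (chr4:125490700-125714173) was the subunit that differed most. In D1-IP it measured 209, 254, 223 and 227 CPM in Con, 202, 267, 231 and 204 in Res, and 214, 220.1, 274, 246 and 264 in Sus. In D2-IP it measured 302, 383, 398, 377 and 462 CPM in Con, 351, 408, 357, 350.3 and 377 in Res, and 323, 377, 369, 378 and 471 in Sus. Every D2-IP library was above every D1-IP library. Grik3 was thus 1.64-fold lower in D1-IP (log2 difference −0.72 ± 0.059, SE; adjusted p = 8.65e-11 by edgeR), a difference of −39.2% with a 95% interval from −44.1% to −33.9%.

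The Grik3 difference was present in each stress group. By the same edgeR test it was −0.76 (log2) within Con (adjusted p = 7.83e-06), −0.72 within Res (1.52e-05) and −0.67 within Sus (1.11e-05).

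Grik4 (chr9:42518135-42944493), a high-affinity subunit, went the other way. It measured 30.5, 33.6, 29.9 and 31.0 CPM in D1-IP Con, 34.6, 34.2, 31.2 and 30.1 in Res, and 33.7, 32.0, 34.4, 32.4 and 31.9 in Sus. The D2-IP values were 28.9, 22.4, 24.3, 23.0 and 25.5 CPM in Con, 24.9, 29.9, 22.2, 27.6 and 25.0 in Res, and 28.5, 25.3, 23.5, 26.8 and 26.1 in Sus. Within each stress group all D1-IP libraries were above all D2-IP libraries, and over the whole set only the lowest D1-IP and the highest D2-IP library met, at 29.9 CPM.

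Grik4 was 24.6% higher in D1-IP (log2 difference 0.32 ± 0.043, SE; adjusted p = 8.98e-07 by edgeR), with a 95% interval from 17.2% to 32.6%. The log2 difference was 0.32 within each of Con, Res and Sus (adjusted p = 0.00475, 0.00443 and 0.00213 by edgeR). Grik3 and Grik4 were the 2 of 9 subunits that passed within each stress group, where 14%, 17.5% and 17.6% of all genes passed in Con, Res and Sus. At a fold over 1.5, Grik3 remained, with 4.98%, 5.52% and 5.55% of all genes.

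The differences of the AMPA subunits were smaller. Gria1 (chr11:57011387-57330244), which with Gria2 forms the main AMPA receptor of many forebrain neurons, ranged from 828.9 through a median of 914 to 1000.3 CPM in D1-IP and from 890.4 through 1007 to 1084 CPM in D2-IP. Gria2 (chr3:80681450-80802835) ranged from 1067 through 1142 to 1310.1 CPM in D1-IP and from 1153 through 1257 to 1416 CPM in D2-IP. For both genes most D2-IP libraries lay above the D1-IP median, and the ranges overlapped. By edgeR, Gria1 was lower in D1-IP by a log2 difference of −0.14 ± 0.033 (SE, adjusted p = 0.00129, −9.09%, 95% interval −13.2% to −4.75%) and Gria2 by −0.12 ± 0.033 (adjusted p = 0.004, −8.09%, −12.3% to −3.67%).

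Gria4 (chr9:4417896-4796234) ranged from 83.0 through 86.9 to 105 CPM in D1-IP and from 70.4 through 78.1 to 93.6 CPM in D2-IP. These ranges overlapped, except within Con, where the 4 D1-IP libraries (83.8, 93.2, 83.0 and 84.6 CPM) were above the 5 D2-IP libraries (72.9, 74.2, 81.0, 81.1 and 70.4 CPM). It was higher in D1-IP by 0.16 ± 0.044 (log2, SE; adjusted p = 0.00446 by edgeR), or 11.6% (95% interval 4.91% to 18.8%). Within single stress groups, none of Gria1, Gria2 and Gria4 passed an adjusted p of 0.05 (0.0812 to 0.292 by edgeR), while the log2 differences kept their sign in all 3.

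The other 4 subunits did not pass. Gria3 (chrX:41400854-41678601) had a log2 difference of 0.09 (adjusted p = 0.0706 by edgeR, 95% interval 0.618% to 12.9%). Grik2 (chr10:49094833-49788766), a low-affinity subunit found at many excitatory synapses, had −0.09 (0.0865, −11.1% to −0.297%), and Grik5 (chr7:25009849-25072346) had −0.05 (0.244, −7.57% to 1.25%). Grik1 (chr16:87895900-88290265), a low-affinity subunit found in many interneurons, had 0.11 (0.522), and its interval from −10.2% to 30.0% was the widest of the 9.

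**Figure D3:**
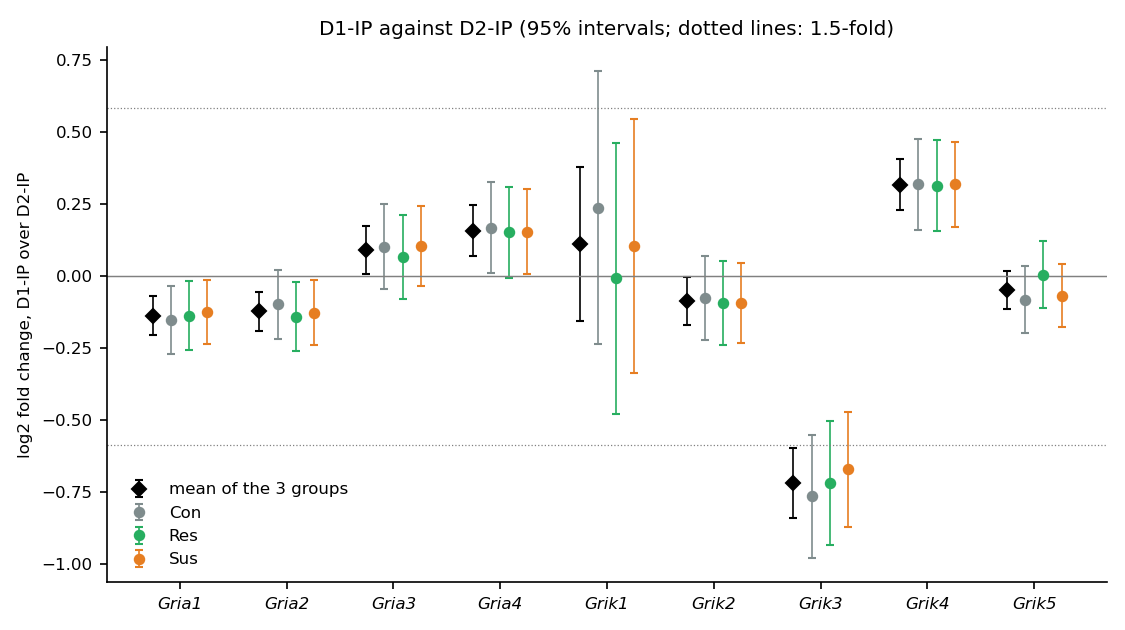
Log2 fold change of each subunit, D1-IP over D2-IP, with its 95% interval, averaged over the stress groups (diamonds) and within Con, Res and Sus (circles), with dotted lines at 1.5-fold. Grik3 lies at −0.76 to −0.67 and Grik4 at 0.32 in all 3 groups, and the other 7 subunits lie nearer 0.

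The same genes were compared in the inputs, where no class of cell was selected. Between D1 and D2 inputs 0 of 9 subunits passed an adjusted p of 0.05 (edgeR; 0.0202% of all genes), 0 passed at an unadjusted p of 0.05, and DESeq2 called 0. Grik3 measured 131 to 198 CPM in the 9 D1 inputs and 134 to 183 CPM in the 9 D2 inputs, a log2 difference of −0.06 (95% interval −13.6% to 6.65%). Grik4 measured 18.6 to 22.8 and 18.7 to 26.1 CPM, a log2 difference of −0.09 (−13.5% to 2.33%).

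Markers of other cells also differed between D1-IP and D2-IP. The summed level of 7 cortical excitatory neuron markers was 432 to 1462 CPM in D1-IP and 56.3 to 352 CPM in D2-IP, and that of 6 cholinergic interneuron markers was 9.02 to 34.1 and 63.9 to 139 CPM. No marker of either list was at 0 in all libraries of a set, but 2 of the cholinergic markers averaged under 1 CPM in D1-IP. The summed level of 7 parvalbumin, somatostatin and NPY interneuron markers was 335 to 429 CPM in D1-IP and 318 to 398 in D2-IP, with overlap. The summed level of 6 MSN markers was 4411 to 6660 CPM in D1-IP and 6116 to 8252 in D2-IP, and all 6 were lower in D1-IP at an adjusted p of 0.05 by edgeR. Over the 13 D1-IP libraries, the log2 cortical marker sum had a Pearson r of 0.82 with Grik3, 0.73 with Gria3, 0.55 with Grik4, −0.54 with Gria1 and −0.70 with Grik2, and between −0.06 and 0.33 with the other 4 subunits. Over the 15 D2-IP libraries it had 0.77 with Grik5, 0.54 with Grik3, −0.67 with Gria4 and −0.75 with Grik1, and between −0.36 and 0.48 with the other 5. The MSN marker sum in D1-IP had 0.75 with Grik2, 0.60 with Gria1, −0.60 with Grik4 and −0.63 with Gria3, and between −0.43 and −0.02 with the other 5. In D2-IP it had 0.66 with Grik5, 0.56 with Grik3, −0.68 with Grik1 and −0.76 with Gria4, and between −0.23 and 0.36 with the other 5. The points of each set are libraries of 1 line that differ in depth, and these values are given as a description. Grik3, the 6 MSN markers and the cholinergic marker sum were lower in D1-IP, and the cortical marker sum was higher. The part of other cells in the differences between D1-IP and D2-IP was not tested. In bulk libraries such as these, fewer cells of a type and less RNA per cell cannot be told apart.

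Other genes of the receptor machinery were counted in the same comparison. At an adjusted p of 0.05 by edgeR, which 19.6% of all genes passed as higher and 21.3% as lower in D1-IP, 2 of 17 AMPA auxiliary subunit genes, which shape gating and surface delivery, were higher and 8 lower. The higher ones were Cnih3 (1.05 on the log2 scale, 47.1 ± 10.2 CPM in D1-IP and 22.5 ± 3.19 in D2-IP), a cornichon, and Shisa6 (0.56), a protein that holds AMPA receptors at the synapse. Among the lower ones, Cacng5 (−0.46) and Cacng4 (−0.39), both transmembrane AMPA receptor regulatory proteins, differed most.

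Both kainate auxiliary subunits were lower in D1-IP at that threshold, Neto2 by a log2 difference of −0.34 (124 ± 10.5 against 157 ± 24.7 CPM) and Neto1 by −0.15. Of 21 scaffold and trafficking genes, 6 were higher at that threshold, with Nptx1 (0.90) and Nptxr (0.83), a neuronal pentraxin and the pentraxin receptor, differing most, and 5 were lower, with Akap5 (−0.18) and Dlg2 (−0.17), both postsynaptic scaffolds, differing most. Of 3 RNA editing enzyme genes 0 passed an adjusted p of 0.05, and 0 passed unadjusted, by edgeR. The lists were chosen with results of these data known.

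The comparison of IP with input asked which subunits were relatively more abundant in tagged ribosomes than in the whole lysate. Gria1, Gria2, Gria3, Grik3, Grik4 and Grik5 were higher in the IP in both lines. Gria4 was lower in D2-IP, while its call in D1-IP depended on the setting, and Grik2 was higher in D2-IP. In D1 mice 6 of 9 subunits passed an adjusted p of 0.05 by edgeR, all higher in the IP, where 81.9% of 15404 genes passed (39.2% higher and 42.7% lower). In D2 mice 8 passed, 7 higher and 1 lower, where 82.7% of genes passed (37.8% higher and 44.9% lower). The median log2 difference of all genes was −0.04 in D1 and −0.08 in D2 mice.

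Grik3 again stood apart in D2 mice. The D2 inputs held 174, 168 and 145 CPM in Con, 161, 159 and 141 in Res, and 134, 151 and 183 in Sus, and the D1 inputs held 145, 143 and 160.3, then 160.1, 131 and 198, then 137, 140.4 and 145. All 28 IP libraries were above all 18 inputs. Grik3 was 2.41-fold higher in D2-IP than in the D2 inputs (1.27 ± 0.071, log2 and SE) and 1.54-fold higher in D1-IP than in the D1 inputs (0.62 ± 0.071).

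Gria1 and Gria2 were higher in the IPs of both lines. Gria1 measured 594 to 641 CPM in the D1 inputs and 609 to 654 in the D2 inputs, below every IP library, and its log2 difference was 0.56 ± 0.033 in D1 and 0.66 ± 0.033 in D2 mice. Gria2 measured 745 to 904 and 697 to 876 CPM in the inputs, also below every IP library, with 0.56 ± 0.043 and 0.69 ± 0.042. Gria3, a subunit that takes part in constitutive receptor turnover with Gria2, had 0.69 ± 0.079 and 0.51 ± 0.077, and its inputs spread widely, from 172 to 320.3 CPM.

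Grik4 had a log2 difference of 0.62 ± 0.053 in D1 and 0.20 ± 0.051 in D2 mice. The D1 inputs (18.6 to 22.8 CPM) were below all D1-IP libraries (29.9 to 34.6), and the D2 inputs (18.7 to 26.1) overlapped with D2-IP (22.2 to 29.9). Grik5 had 0.16 ± 0.042 and 0.17 ± 0.041. Grik2 had 0.04 (adjusted p = 0.461 by edgeR) in D1 mice and 0.15 ± 0.047 (0.00311) in D2 mice. Whether these differences from input differ between the lines was not tested.

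Gria4 was lower in the D2-IP than in the input. It measured 84.6 to 117 CPM in the D2 inputs against 70.4 to 93.6 in D2-IP, a log2 difference of −0.23 ± 0.049 (adjusted p = 4.54e-05 by edgeR, −14.9%, 95% interval −20.6% to −8.81%), with overlap of 84.6 to 93.6 CPM. In D1 mice the inputs measured 89.0 to 104 CPM and D1-IP 83.0 to 105, with −0.11 ± 0.051 (adjusted p = 0.0545). Grik1 had −0.04 in D1 mice (adjusted p = 0.792) and −0.30 in D2 mice (0.0591), with levels of 7.35 to 20.3 CPM in D2-IP and 10.1 to 26.1 in the D2 inputs.

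In 9 pools of each line both an IP and an input library were made. Gria1, Gria2, Gria3, Grik3 and Grik5 were higher in the IP than in the input of the same pool in 9 of 9 pools of both lines, Grik4 in 9 of 9 D1 and 7 of 9 D2 pools, and Gria4 in 2 of 9 D1 and 0 of 9 D2 pools. With the pool as a replicate block, Gria4 passed in D1 mice as well (−0.09, adjusted p = 0.0265 by edgeR) and Grik1 passed in D2 mice (−0.33, 0.0196). The pairing changed no other call among the subunits. With this block 81.9% of all genes passed in D1 and 82.1% in D2 mice. The share of all genes that were higher in the IP in 9 of 9 pools was not computed.

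Glial, vascular and interneuron markers moved in this comparison. The summed level of 7 parvalbumin, somatostatin and NPY interneuron markers was 335 to 429 CPM in D1-IP and 318 to 398 in D2-IP. It was 473 to 538 CPM in the D1 inputs and 475 to 567 in the D2 inputs. The summed level of astrocyte markers was 82.6 to 175 CPM in D1-IP and 62.7 to 117 in D2-IP, against 1044 to 1297 in the D1 inputs, and microglial, oligodendrocyte and endothelial markers were lower in the IPs too. Over the 18 inputs, the log2 sum of the cortical excitatory markers (111 to 1176 CPM) had a Pearson r of 0.89 (Spearman rho 0.91) with Gria3, 0.86 with Grik3, 0.73 with Gria2 and 0.74 with Grik5, and of −0.77 with Grik2, −0.76 with Gria4 and −0.75 with Grik1. These 18 points pool the inputs of both lines. The part of cortical, interneuron, glial and vascular cells in the differences between IP and input was not tested.

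**Figure D4:**
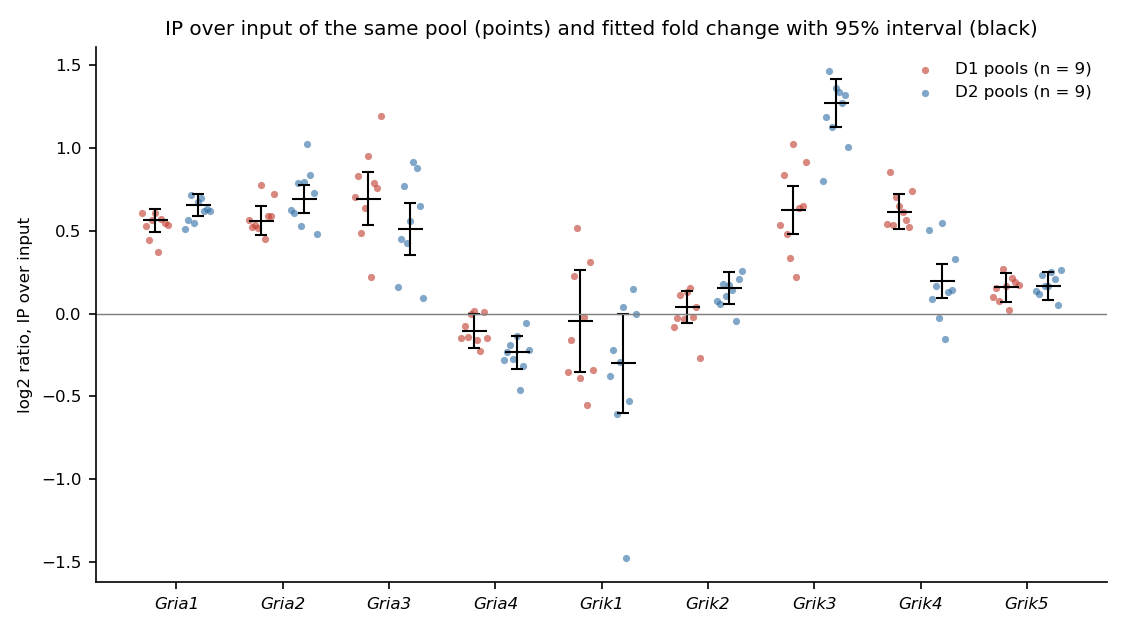
Log2 ratio of IP over input for each subunit, with a point for each of the 9 pools of D1 and of D2 mice, and in black the fitted fold change over all libraries with its 95% interval. The fitted value is highest for Grik3 in D2 mice (1.27), and that of Gria4 lies below 0 in both lines (−0.11 and −0.23).

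Around the subunits, most scaffolds were higher in the IPs and the auxiliary subunits were mixed, at an adjusted p of 0.05 by edgeR. Of all genes 39.2% were higher and 42.7% lower in D1-IP, and 37.8% and 44.9% in D2-IP. Of 21 scaffold and trafficking genes, 17 were higher and 1 lower in D1-IP than in the D1 inputs, and 15 were higher and 3 lower in D2-IP. Dlg3, a postsynaptic scaffold of the same family as Dlg2, was among the highest in both lines (1.08 and 1.09, log2), and Grip2, which binds the tails of Gria2 and Gria3, was lower in both (−0.57 and −0.79). Of 17 AMPA auxiliary genes, 9 were higher and 4 lower in D1-IP, and 10 were higher and 5 lower in D2-IP. Gsg1l, an auxiliary subunit that dampens AMPA receptor currents, was higher (0.70 and 0.97) and Cacng7 was lower (−0.80 and −0.90).

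The stress comparisons asked whether subunit levels in D1-IP, D2-IP or input differed between Sus, Res and Con mice. No subunit passed in any of them. In the 6 IP comparisons 0 of 9 subunits had an unadjusted p under 0.05 by edgeR, nor did any by DESeq2. Of all genes, 5.34%, 2.11% and 4.23% had one for Sus against Con, Res against Con and Sus against Res in D1-IP, and 3.68%, 3.02% and 1.66% in D2-IP. In the 3 input comparisons 0 of 9 had one by either tool, against 4.47%, 3.23% and 5.54% of all genes.

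Over the 81 tests of a subunit in these 9 comparisons, the lowest unadjusted p was 0.0709 (Grik1, input Sus against Con) and the lowest adjusted p was 0.877 by edgeR. The log2 differences ran from −0.10 to 0.35. Leaving Grik1 aside, the 95% intervals ran from −23.8% to 24.6% at their widest, so larger changes of the other 8 subunits lay outside all intervals. The comparisons of Sus and of Res share the Con libraries.

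Grik3 and Grik4, which separated the lines, are an example. The Grik3 values above overlapped among Con, Res and Sus within D1-IP and within D2-IP, and so did the Grik4 values. The tests of whether the stress difference itself differed between D1-IP and D2-IP called 0 of 9 subunits for Sus against Con and 0 for Res against Con at an unadjusted p of 0.05 (edgeR and DESeq2), against 1.82% and 2.36% of all genes.

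Grik1, the least abundant subunit, with 188 to 562 counts per library, was the most variable one. In D2-IP it measured 9.30, 10.8, 8.65, 12.2 and 9.61 CPM in Con, 10.3, 11.2, 7.35, 15.1 and 20.3 in Res, and 18.1, 14.3, 10.0, 9.002 and 10.4 in Sus. In the D2 inputs it measured 12.1, 12.5 and 13.2 CPM in Con, 12.5, 10.9 and 20.5 in Res, and 26.1, 12.8 and 10.1 in Sus. The higher values belonged to 1 or 2 libraries of each defeated group, and the groups overlapped in D2-IP. The log2 difference was 0.34 for Res against Con in D2-IP and 0.35 ± 0.181 (SE) for Sus against Con in the inputs, neither of which passed. Over all 9 comparisons the intervals of Grik1 ran from −28.9% to 73.2%.

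Single libraries moved these calls. Without D2-IP Res replicate 3, Grik1 passed an unadjusted p of 0.05 in D2-IP Res against Con (log2 difference 0.49). Without D2 input Sus replicate 3, 3 subunits passed in input Sus against Con (Grik1 0.46, Grik4 0.17 and Gria4 0.14). At that threshold 4.47% of all genes passed with every library kept, and the share in this refit is not given here. Of the auxiliary, scaffold and editing genes, 0 passed an adjusted p of 0.05 by edgeR in the 9 stress comparisons. Of their 387 tests, 8 had an unadjusted p under 0.05, 6 of them in AMPA auxiliary genes. Of all genes, 1.66% to 5.54% had one in these comparisons.

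The libraries labelled Sirt1-KO were compared with D1-IP Con to ask whether subunit levels differ when Sirt1, a NAD-dependent deacetylase, is deleted in D1 cells. The targeted gene did not differ at the level of whole-gene counts. Sirt1 measured 13.1, 16.6, 14.8 and 14.4 CPM in D1-IP Con and 15.2, 16.2, 13.2 and 10.2 in the libraries labelled Sirt1-KO, a log2 difference of −0.10 (adjusted p = 0.768 by edgeR). The counts cover all exons of the gene, and which exons are floxed is not given in the sources used here, so these values do not check the label.

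Gria4 was lower in the libraries labelled Sirt1-KO, and it was the 1 of 9 subunits to pass an adjusted p of 0.05 by edgeR, where 1.66% of 13626 genes passed (0.616% higher and 1.04% lower). It measured 79.2, 88.3, 78.6 and 80.5 CPM in D1-IP Con and 68.8, 63.5, 64.1 and 69.2 in the libraries labelled Sirt1-KO, and the groups did not overlap. The log2 difference was −0.30 ± 0.059 (SE, adjusted p = 0.0353), or −18.7% (95% interval −25.7% to −11.0%). In 7 of 8 fits that left out 1 library the adjusted p was above 0.05 (0.0118 to 0.125 over all 8), with log2 differences from −0.32 to −0.26. At a fold over 1.5, 0 of 9 subunits and 0.749% of genes passed.

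Another 4 subunits passed an unadjusted p of 0.05, as 17.3% of all genes did. Grik3 measured 198, 241, 211 and 216 CPM in Con and 235, 248, 288 and 280.4 in the libraries labelled Sirt1-KO, with overlap of 1 library from each side, and a log2 difference of 0.28 ± 0.079 (SE, adjusted p = 0.0941 by edgeR). Grik1 measured 8.44, 11.2, 13.2 and 12.7 against 8.32, 6.54, 7.53 and 8.84 CPM, with overlap, a log2 difference of −0.55 ± 0.149 (adjusted p = 0.0839). Grik5 measured 245, 262, 236 and 259.8 against 264, 269, 298 and 280.1 CPM, without overlap, and had 0.15 ± 0.057 (adjusted p = 0.209). The share of all genes whose libraries did not overlap in this comparison was not computed.

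Gria3 measured 321, 343, 357 and 328 CPM in Con and 399, 469.8, 483 and 310.5 in the libraries labelled Sirt1-KO. The first 3 of those libraries were above every Con library and replicate 5 was below them all, and the log2 difference was 0.30 ± 0.114 (adjusted p = 0.2 by edgeR). Grik2 had −0.18 (adjusted p = 0.293), Gria2 0.11 (0.447), Grik4 −0.08 (0.653) and Gria1 0.02 (0.937). DESeq2 called 3 subunits in this comparison (Gria4, Grik1 and Grik3), and it called 5.44% of all genes.

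Markers of other cells moved with these libraries. The summed cortical excitatory marker level was 409 to 1075 CPM in D1-IP Con and 899 to 1642 in the libraries labelled Sirt1-KO, that of the D1 markers 1192 to 1469 and 896 to 1122 CPM, that of the MSN markers 4911 to 6299.5 and 3686 to 5330 CPM, and that of the cholinergic markers 11.2 to 14.02 and 4.41 to 9.49 CPM. Of the 6 cholinergic markers, 4 averaged under 1 CPM in the libraries labelled Sirt1-KO and 2 in D1-IP Con. The parvalbumin, somatostatin and NPY marker sum was 316 to 361 CPM in D1-IP Con and 341 to 399 in the libraries labelled Sirt1-KO, with overlap. All 7 cortical markers were higher at an unadjusted p of 0.05 and 0 at an adjusted p by edgeR. Their part in the subunit differences was not tested, and the genotype and whatever else set these mice and their separately deposited table apart cannot be told apart. Of the machinery lists, Camk2a, the alpha subunit of a kinase that phosphorylates Gria1, passed an adjusted p of 0.05 (0.33, log2; adjusted p = 0.0356; 2947 ± 189 against 3712 ± 221 CPM).

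**Figure D5:**
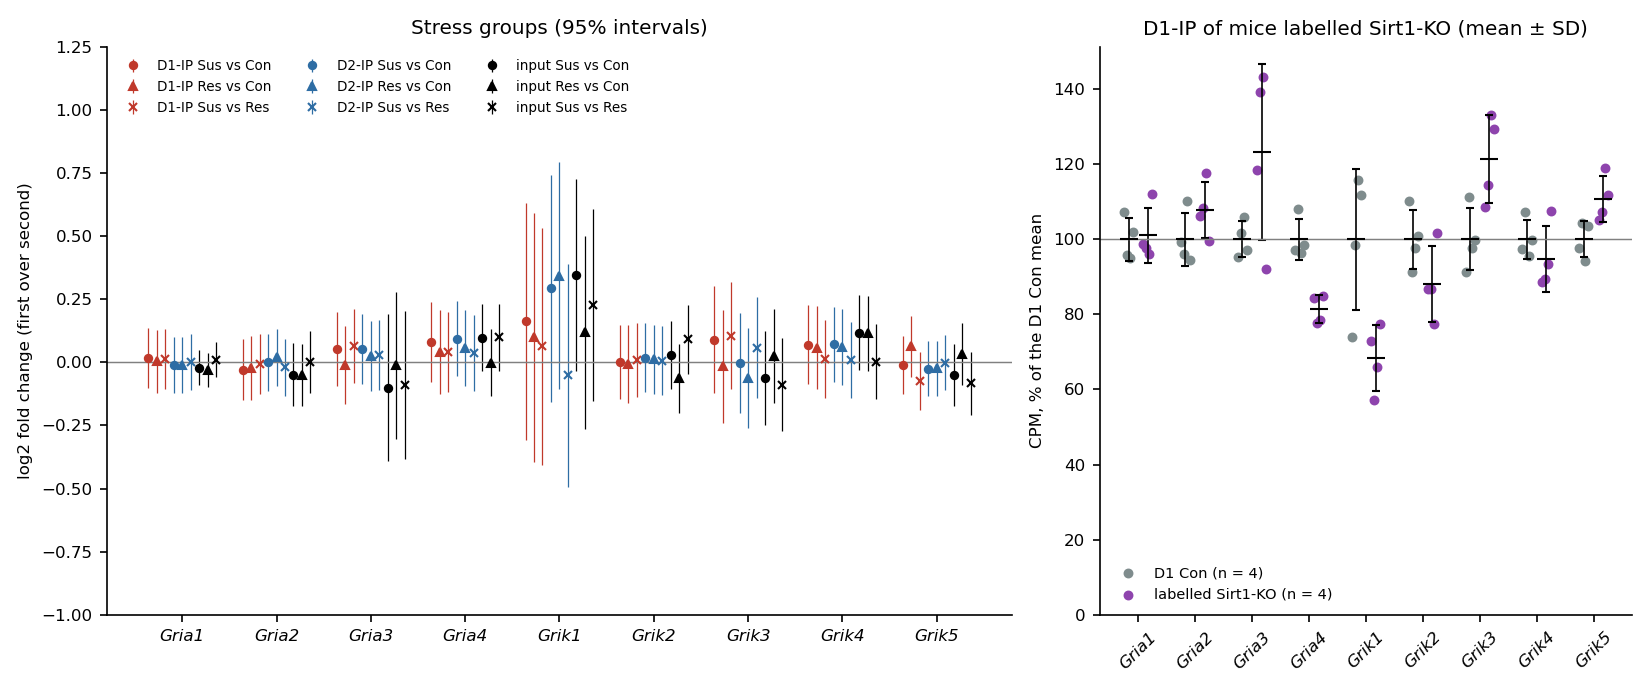
Left, log2 fold change of each subunit with its 95% interval in the 9 stress comparisons of D1-IP, D2-IP and input; right, CPM in each library of D1-IP Con and labelled Sirt1-KO as a percent of the D1-IP Con mean, with mean and SD. The stress values lie between −0.10 and 0.35 with intervals that include 0, and the 4 Gria4 points labelled Sirt1-KO lie below the 4 of Con.

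Over the 28 IP libraries some subunits varied together and others in opposite directions. Among member pairs, Gria1 and Grik2 were most alike (Pearson r of log2 CPM 0.85) and Grik3 and Grik4 most opposed (−0.77). The gene most like Grik3 among all tested was Oprd1 (0.941), followed by Rimbp2 (0.938) and Trim62 (0.937). For Grik4 they were Osbpl10 (0.919), Tcf25 (0.909) and Bean1 (0.899). For Gria1 they were Strn (0.918), Sv2c (0.913) and Dlg2 (0.912), for Gria2 Psip1 (0.865), Add3 (0.865) and Alcam (0.816), and for Gria4 Kndc1 (0.878), Nr2f2 (0.863) and Ctif (0.853). Grik2 was most like Akap5 (0.869), Strn (0.856) and Gria1 (0.846), and Grik1 most like Lrrc75b (0.883), Igdcc4 (0.846) and Sema4g (0.843). The likeness was weakest for Gria3 (Ppfia2 0.834, Cacna2d1 0.802, Bzw1 0.795) and Grik5 (Iqsec2 0.786, Hrh3 0.745, Ddn 0.744). The points share the difference between lines, so these values describe the libraries only.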

How the data were processed

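NAc polyadenylated RNA was sequenced as 150-base pairs from strand-marked libraries. Per the labels and the study's methods the authors trimmed reads (cutadapt), aligned them (STAR, mm10) and deposited raw read counts per gene (HTSeq, not named for the Sirt1-KO libraries), with no normalization. Versions, the annotation and the strand setting are not given in the sources used here. Groups came from the sample labels. The table of IPs and inputs held 2 columns with no sample description used here, which were left out. Entries that name no gene (18.0% to 28.3% of counts in IPs, 35.9% to 40.0% in inputs and 19.2% to 23.8% in Sirt1-KO libraries) stayed out of library sizes. Of the symbols for the Sirt1-KO libraries, 5 were listed more than once with the same counts, and the D1-IP Con counts were the same in both tables. No 2 replicates differed by less than sampling noise (lowest chi-square per gene 3.60 over 76 pairs).

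Counts were fitted with edgeR 4.0.16 (R 4.3.3, limma 3.58.1; filterByExpr with a minimum count of 10 and total of 15, TMM, quasi-likelihood test) over all genes, with Benjamini-Hochberg adjustment: 1 fit of the 28 IPs, 1 of the 18 inputs, 1 of all 46 for IP against input, and 1 of the 8 Sirt1-KO and D1-IP Con libraries. Stress comparisons used an unadjusted p of 0.05, as the study did, and the others an adjusted p. CPM used TMM-scaled library sizes, log2 CPM a prior count of 2, and levels per kb the merged exons of GENCODE vM21 (GRCm38), with the longest transcript as an alternative. Each replicate is a pool of 2 mice, and p-values measure the spread between these pools. The main fit of IP against input is an exception, as it took the IP and input libraries of a pool as independent. Only the replicate block used that pairing. DESeq2 1.42.0 was an alternative, beside RLE scaling, 2 other filters, models of the compared groups alone, replicate blocks and leaving out each library. The scripts were tested on simulated counts. Where libraries are said not to overlap, the share of all genes of which that holds was not computed. All 9 subunits are named in every comparison. From the other lists the text gives counts of calls and up to 2 genes for each list and direction by size of change (in stress and Sirt1-KO comparisons those with an adjusted p under 0.05), and the 3 genes most like each subunit by r. The members and lists were chosen with earlier results of these data known. Figures were drawn with matplotlib 3.10.9.

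IP and input libraries of a number come from the same pool, by the titles and by the protocol, which kept part of each lysate as input. The deviations of such pairs from their group means correlated at −0.19 to 0.51 over 18 pairs, and 8 of 18 were most alike with their own number.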

Additional observations from a re-analysis of the deposited data

Results flagged for a closer look

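In 3 of the 63 combinations of a subunit and a group of 4 or 5 libraries, the highest library stood apart from the others by more than Dixon's 95% critical value, and chance alone gives about 1 in 20. Gria2 measured 1282 CPM in D1-IP Sus replicate 3 and 1116 to 1159.7 CPM in the other 4 libraries of that group. Gria4 measured 93.2 CPM in D1-IP Con replicate 2, while the rest of the group lay between 83.0 and 84.6 CPM. Gria1 measured 963 CPM in the library labelled Sirt1-KO replicate 5, against 826 to 848 CPM in its group.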

How the results depend on the processing

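The Grik3, Grik4, Gria1, Gria2 and Gria4 differences between D1-IP and D2-IP kept their direction and their side of the threshold under RLE scaling, both other filters, DESeq2, the replicate block and each left-out library. A fold over 1.5 left 1 subunit in that comparison, overall and within Con, Res and Sus, and 0 in the Sirt1-KO comparison, where DESeq2 called 3 (and 5.44% of all genes) and the replicate block 5 (and 11.7% of all genes), beside 1 (and 1.66%). In the Sirt1-KO comparison the replicate block kept only numbers found in both groups. It therefore also left out D1-IP Con replicate 2 and Sirt1-KO replicate 5, and the part of the block itself was not separated from this. Leaving out 1 library gave 0 to 1 calls for D2-IP Res against Con, 0 to 3 for input Sus against Con (1 without D2 input Sus replicate 2), 0 to 2 for input Sus against Res (1 without D2 input Res replicate 3, 2 without D2 input Sus replicate 3) and 0 to 4 for Sirt1-KO (4 without Sirt1-KO replicate 5). The full fits called 3.02%, 4.47%, 5.54% and 1.66% of all genes in these comparisons, and the shares in the refits are not given here. Leaving out 1 library also gave 5 to 7 calls between D1-IP and D2-IP and 2 to 3 within each stress group. Against input it gave 6 to 7 calls in D1-IP and 8 to 9 in D2-IP. With every library kept, 40.8% of all genes passed between D1-IP and D2-IP, and 14% to 17.6% within stress groups. Against input 81.9% passed in D1 and 82.7% in D2 mice, and the shares in these refits are not given here. Signs changed for Grik1 between the IPs within Res (0.00303 with a mean of at least 50 counts, 0.0484 with the replicate block, −0.183 to 0.221 with a library left out) and within Sus (−0.0247 to 0.291), for Grik5 within Res (−0.0181 to 0.0346), for Grik2 and Grik1 in D1-IP against input (−0.0456 with a mean of at least 50 counts, and −0.0891 to 0.0123), and for Gria1 in the Sirt1-KO comparison (−0.0557 with the replicate block, −0.0406 to 0.0510 with a library left out). The cause was not tested. With a mean of at least 50 counts Grik5 in D1-IP against input (0.07) and Grik2 in D2-IP against input (0.08) no longer passed. With that filter Gria4 in D1-IP against input (adjusted p = 0.00126 by edgeR) and Grik1 in D2-IP against input (0.0215) did pass. Gria4 in D1-IP against input also passed with RLE scaling (0.0172 by edgeR) and by DESeq2 (0.0161). In these settings 81.4% to 82.5% of all genes passed in D1 mice. With a mean of at least 50 counts 83.8% passed in D2 mice.

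In all groups but the IP and input of a pool, replicates share only a number. Deviations of same-numbered libraries correlated at −0.18 to 0.31 among IP groups (66 pairs), −0.38 to 0.44 among inputs (45 pairs) and −0.01 to 0.08 between Sirt1-KO and Con (3 pairs), with 25, 15 and 0 most alike with their own number. With this replicate block, 6 subunits were called between D1-IP and D2-IP (Gria3 added, 0.08), with 41.7% of all genes. Within Res 3 were called (Gria2 added, −0.15), with 19.9% of all genes. Grik1, at under 600 counts a library, is the subunit whose depth and spread allow the least.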

Other observations

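Genes next to these receptors showed differences of their own between IP and input. Of the RNA editing enzymes, Adar (0.60 in D1 and 0.55 in D2 mice, log2) and Adarb1, which edits the pore codon of Gria2 (0.25 and 0.21), were higher in the IPs, and Adarb2, a family member without known editing activity, was lower (−0.59 and −0.53). All of these passed an adjusted p of 0.05 by edgeR, where 81.9% of all genes in D1 and 82.7% in D2 mice passed. Adarb1 measured 247 ± 10.1 CPM in D1-IP (n = 13) and 207 ± 12.6 in the D1 inputs (n = 9).

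Among the genes of the NMDA and delta receptor subunits, Grin1, the obligatory NMDA subunit, and Grid1 were higher in both IPs (0.81 and 0.80 in D1, 0.83 and 0.86 in D2 mice). Grin2c, typical of astrocytes and cerebellar granule cells, was lower in both (−2.82 and −2.37). Between the lines, Grin3a was higher in D1-IP (0.68, adjusted p = 2.26e-06 by edgeR, 67.0 ± 10.4 against 41.1 ± 9.27 CPM), with 8 of the 9 genes of this list tested. Grin2c was lower in D1-IP (−0.41, adjusted p = 0.00172 by edgeR). Its level was low in D1-IP and D2-IP (7.24 ± 0.995 and 9.50 ± 2.07 CPM) beside the D1 and D2 inputs (51.0 and 49.1 CPM). Of all genes, 19.6% were higher and 21.3% lower in D1-IP at an adjusted p of 0.05.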
